A study of Mus musculus with 10 samples.

Results

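Pontin (Ruvbl1) is an AAA+ ATPase that is found in chromatin remodelling and histone acetyltransferase assemblies such as INO80, SRCAP and Tip60-p400. Such assemblies are best known for their work at gene promoters, where nucleosomes are moved, exchanged or acetylated. In chromatin immunoprecipitation followed by sequencing (ChIP-sequencing), fragments bound by an antibody are read out, and a control antibody, here against GFP, gives the level of unspecific recovery along the genome. The comparison described here asks how the reads recovered with the Pontin antibody are spread over the whole genome relative to those recovered with the GFP antibody, on the scale of windows, chromosomes and gene-dense or gene-poor domains rather than of single promoters.

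The members were the 10 kb windows of the 19 mouse autosomes, laid end to end from position 0 of each chromosome, that held at least 20 reads of the GFP library after 1 read was kept per position and strand. Of 247243 autosomal windows, 223416 (90.4%) met this rule. Of the 23827 windows left out, 7714 held no sequenced base in the reference. Window ratios were formed from RPM, the reads of a window scaled to a common library total of kept autosomal reads, and are given on the log2 scale as Pontin over GFP.

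The study compared mouse embryonic stem (ES) cells with and without Pontin, Oct4 or the non-coding RNA linc1253. Both ChIP libraries, 1 per antibody, are labelled as untreated ZHBTc4 ES cells, a line in which Oct4 is driven by a transgene that tetracycline (Tc) shuts off. That both carry this transgene rests on the label and was not tested. Reads over Y-linked genes, given below, set them apart from the mRNA libraries with that label. The mRNA libraries used beside them are 1 of untreated Pontinf/f; CreER ES cells (WT, floxed Pontin with a tamoxifen-dependent Cre), 1 each of the same cells 3 and 4 days after 4-hydroxytamoxifen (OHT 3D and OHT 4D), 1 of ZHBTc4 cells 2 days after Tc (Tc 2D), and 2 of ZHBTc4 cells 4 days after infection with a pLKO control virus (control shRNA). With 1 library per antibody there is no replicate check and no test. Errors below are standard errors or 95% intervals from counting of read pairs, which cover counting error only, and windows are not replicates of either antibody. The tolerance used to sort alternative settings is not such an error and is described with them.

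Sequences from the windows at both ends of the ratio are shown as examples, and the sets were not placed alike, upstream of gene starts at the high end and at window centres at the low end. Among windows with at least 50 GFP reads, the 10 with the highest ratio each held the start of a gene expressed in the control shRNA libraries, and none of the 10 with the lowest ratio held a protein-coding gene start. Shown first, because they sit at the high end, are the 200 bases upstream of the annotated starts of Rps19 (chr7:25669190-25669389, plus strand), Hs3st3b1 (chr11:63735793-63735992, minus strand) and Rpl23a (chr11:77997087-77997286, minus strand), written 5′ to 3′ on the strand of the gene from NCBIM37, with CG dinucleotides in capitals. Stretches that overlap an annotated exon were passed over, as was the highest window, that of Pcbp1, for this reason.
Rps19: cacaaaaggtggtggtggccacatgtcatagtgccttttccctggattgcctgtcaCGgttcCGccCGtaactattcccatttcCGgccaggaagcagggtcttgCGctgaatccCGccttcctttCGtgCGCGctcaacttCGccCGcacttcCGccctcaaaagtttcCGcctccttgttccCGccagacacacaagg
Hs3st3b1: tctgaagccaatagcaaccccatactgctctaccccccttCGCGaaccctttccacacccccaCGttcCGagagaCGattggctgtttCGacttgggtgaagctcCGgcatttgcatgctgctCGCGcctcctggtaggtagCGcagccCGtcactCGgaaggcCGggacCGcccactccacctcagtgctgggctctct
Rpl23a: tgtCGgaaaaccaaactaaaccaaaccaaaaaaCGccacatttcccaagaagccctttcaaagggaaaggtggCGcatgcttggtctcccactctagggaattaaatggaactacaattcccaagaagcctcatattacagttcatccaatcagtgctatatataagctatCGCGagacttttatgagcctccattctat

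The Rps19 and Hs3st3b1 stretches each held 14 CG dinucleotides and the Rpl23a stretch held 5. In the 1000 bases centred on these starts the Pontin library had 44, 36 and 46 reads for Rps19, Hs3st3b1 and Rpl23a, against 3, 0 and 6 reads of the GFP library. Shown next, from the other end of the ranking, are the central 200 bases of the 3 windows with the lowest ratio (chr2:46434901-46435100, chr1:101814901-101815100 and chr16:51494901-51495100, plus strand, NCBIM37), which lie between genes, in an intron of Cntnap5b and between genes.
window on chromosome 2: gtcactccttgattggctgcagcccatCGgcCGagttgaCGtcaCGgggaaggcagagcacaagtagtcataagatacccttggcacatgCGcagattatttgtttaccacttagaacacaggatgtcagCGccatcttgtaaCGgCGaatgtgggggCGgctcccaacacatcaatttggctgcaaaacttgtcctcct
window in Cntnap5b: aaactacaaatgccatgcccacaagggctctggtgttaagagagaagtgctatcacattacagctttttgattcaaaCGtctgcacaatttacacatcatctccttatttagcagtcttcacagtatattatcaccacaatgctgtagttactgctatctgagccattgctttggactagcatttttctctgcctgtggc
window on chromosome 16: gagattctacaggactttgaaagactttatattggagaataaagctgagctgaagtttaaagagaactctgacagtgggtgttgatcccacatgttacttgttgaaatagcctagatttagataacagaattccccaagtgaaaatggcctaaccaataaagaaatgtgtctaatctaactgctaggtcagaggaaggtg

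These 3 stretches held 9, 1 and 0 CG dinucleotides. In the 1000 bases around their centres the Pontin library had 4, 10 and 9 reads and the GFP library 2, 4 and 5, too few to give a ratio for the stretches themselves.

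The depth of the libraries was unequal. The Pontin library held 40729076 deposited reads and the GFP library 17185883, of which 11.4% and 19.3% shared position and strand with another read. The kept autosomal reads numbered 34721336 and 13340820, from 18638995 and 7226260 pairs or single reads. Both mates were present for 74.7% of read names in the Pontin library and 64.0% in the GFP library, and the median span of a pair was 237 and 238 bases. The median window held 154 Pontin and 59 GFP reads, or 4.44 and 4.42 RPM, and the standard error of its log2 ratio from counting was 0.30. The GFP library therefore set most of the error of each ratio.

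Y-linked genes set the ChIP libraries apart from the mRNA libraries of the same cell line label. Over Ddx3y, Eif2s3y, Kdm5d and Uty, the 4 Y-linked genes that span 239 kb together, the Pontin library labelled ZHBTc4 had 1 read and the GFP library 0, whereas over their X-linked partners Ddx3x, Eif2s3x, Kdm5c and Kdm6a, which span 196 kb, they had 2928 and 1091 reads. In the mRNA libraries, Ddx3y was at 43.5 CPM (library-scaled read counts of a gene) in Tc 2D and at 51.3 and 45.9 CPM in the 2 control shRNA libraries, all labelled ZHBTc4, and at 0 CPM in WT. Eif2s3y was at 51.1, 68.4 and 61.2 CPM and Uty at 20.8, 12.9 and 10.7 CPM in the same order, whereas Kdm5d was at 0.106 CPM in Tc 2D and at 3.37 and 3.53 CPM in the control shRNA libraries, and each of these was at 0 CPM in WT. Chromosome 16 had 0.74 of the typical autosome's median reads per window in the Pontin library and 0.75 in the GFP library, while the other 18 autosomes ranged from 0.95 to 1.08 and from 0.95 to 1.07. The X chromosome stood at 0.67 in both over the 73.0% of its windows that were kept. With no read minimum it stood at 0.605 in the Pontin and 0.603 in the GFP library, and chromosome 16 at 0.743 and 0.759. In mRNA, the median log2 difference from WT of genes on chromosome 16, relative to all 9333 genes above 5 CPM, was 0.44 in Tc 2D and 0.35 and 0.32 in the control shRNA libraries, that of chromosome 1 was 0.12, 0.34 and 0.31, that of chromosome 14 was -0.25, -0.17 and -0.10, and that of the X was -0.40, -0.34 and -0.17. The other 16 chromosomes ran from -0.090 to 0.082 in Tc 2D, and from -0.073 to 0.035 and from -0.13 to 0.040 in the control shRNA libraries. Chromosome 14 thus lay within the range of the others in the second control shRNA library. The ChIP libraries showed no raised read level on chromosome 1 (0.96 and 0.97). The control shRNA table was normalized apart from the table with WT, so the control shRNA differences from WT cross tables. Whether the ChIP and the mRNA libraries labelled ZHBTc4 came from the same cells was not tested, and the expressed-start minus no-gene difference given below is the one value that was also computed with expressed called from the WT library (0.19 either way). The other window and gene classes by expression rest on the control shRNA libraries, except in the OHT and Tc comparisons, which use WT.

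The ES cell label was met by the pluripotency markers in mRNA, at lower levels in WT. The fibroblast markers ran from near 0 to 33.5 CPM. In the control shRNA libraries the pluripotency genes Pou5f1 (642 and 582 CPM), Nanog (916 and 783), Sox2 (564 and 516), Zfp42 (1210 and 914) and Esrrb (753 and 645) were high. Of the fibroblast genes, Col3a1 was at 0.092 and 0.258 CPM and Col1a2 at 0.738 and 2.24 CPM. The fibroblast genes Col1a1, at 5.67 and 6.24 CPM, and Thy1, at 33.5 and 27.4 CPM, were higher. In WT, whose table was normalized apart, Zfp42 was at 61.4 CPM, Pou5f1 at 301, Nanog at 367, Sox2 at 458 and Esrrb at 565 CPM, Col3a1 at 0.581, Col1a2 at 2.82 and Col1a1 at 4.20 CPM, and Thy1 at 9.25 CPM.

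The Pontin and GFP libraries covered the genome almost alike. The median log2 ratio over the 223416 windows was -0.0062, the interquartile range ran from -0.22 to 0.21, and the extremes were -1.89 and 1.77. Windows above 0.58 on the log2 scale, which is 1.5-fold, made up 4.24% (9466 windows), and windows below -0.58 made up 3.72% (8303 windows). Which side was larger depended on the windows and reads kept, with 1.2% above and 3.74% below at a minimum of 50 GFP reads and 6.66% above and 6.98% below with all deposited reads. The standard deviation (SD) of the log2 ratio was 0.33, and counting of pairs alone gives an SD of 0.31, which leaves 0.10 beyond counting. At the typical standard error of 0.30, the 95% counting interval of a single window at 0.58 reaches 0. Their log2 read counts had a Pearson correlation of 0.74 over the 223416 windows, which share base composition and mappability.

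**Figure D1:**
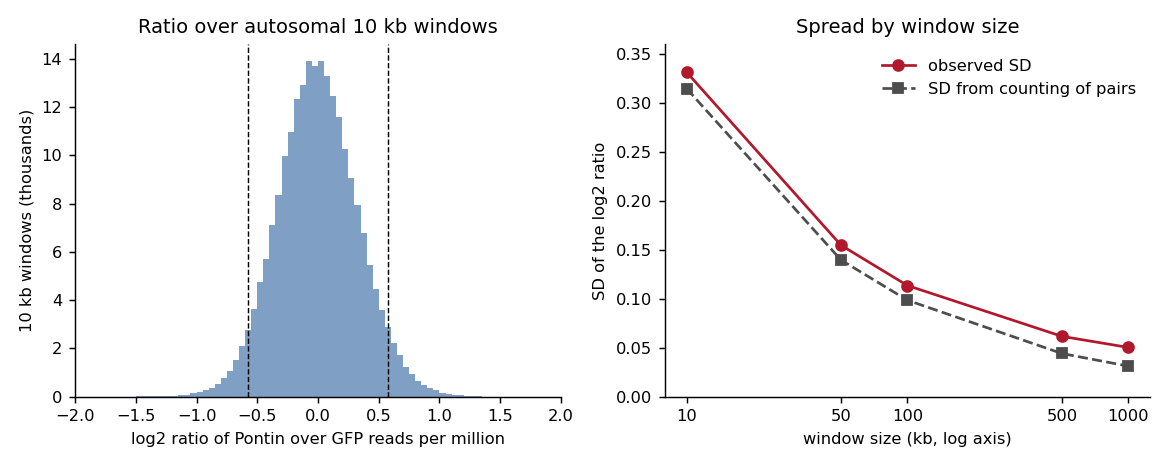
Left, number of autosomal 10 kb windows (axis in units of 1000) by log2 ratio of Pontin over GFP RPM, with dashed lines at -0.58 and 0.58. Right, SD of the log2 ratio over windows of 10, 50, 100, 500 and 1000 kb (log axis) beside the SD expected from counting of read pairs; the observed SD lies above the counting SD at each size, by 0.33 against 0.31 at 10 kb and by 0.050 against 0.031 at 1000 kb.

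Wider windows removed counting error and most of the spread. At 50 kb the SD was 0.15, with 0.14 from counting, and 11 of 46024 windows were above 0.58 and 13 below -0.58. At 100 kb the SD was 0.11 and 0 of 23088 windows were above 0.58, while 2 were below -0.58. At 1000 kb the SD was 0.050, with 0.031 from counting, and the 2354 windows ranged from -0.27 to 0.15. The part of the SD beyond counting was 0.10 at 10 kb, 0.056 at 100 kb and 0.039 at 1000 kb, so that Pontin and GFP differed least over broad domains. Ratios of neighbouring 10 kb windows had a correlation of 0.038, those of windows 100 kb apart 0.016 and those 1000 kb apart 0.0057. Within each library, the variation between windows beyond counting was also alike, with a coefficient of variation of 34.1% for Pontin and 32.7% for GFP. The top 1% of windows held 1.99% of the pairs in the Pontin library and 1.98% in the GFP library. No strong concentration of the Pontin reads in few windows was measured.

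Whole chromosomes differed little in the windows kept. The median log2 ratio of the 19 autosomes ran from -0.017 on chromosomes 14 and 16 to 0.013 on chromosome 11, a range of 0.031 with an SD of 0.0080. The range was 0.094 with 1 read of each pair and 0.18 with a minimum of 50 GFP reads, and without chromosome 16 it was then 0.038 and 0.055. The pooled log2 ratio of chromosome 11, from all reads of its kept windows, was 0.016 (95% counting interval 0.011 to 0.022), and that of chromosome 14 was -0.017 (-0.022 to -0.011), so these intervals did not overlap. Chromosome 19 followed at 0.0087. Of the autosomal medians, 4 were above 0 (7, 11, 15 and 19) and 15 were below. That 0 is set by the library totals, and relative to the median window 9 lay above and 10 below. The chromosome medians had a correlation of 0.85 with mean GC content and of 0.83 with the number of gene starts nearby over the 19 chromosomes, but those 2 features had a correlation of 0.89 with each other.

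Chromosome 16 and the X stood apart in their spread. Among the autosomes, the share of windows past 0.58 was highest on chromosome 16 in both directions, at 5.86% above and 5.83% below, beside 4.24% and 3.72% over all windows, and its windows held 45.1 GFP reads on average against 64.9 on chromosome 11. The X chromosome, left out of the members, had a median of -0.042 and a pooled log2 ratio of -0.042 (-0.048 to -0.035) over its 12158 windows with at least 20 GFP reads, below the interval of each autosome, with a mean GC content of 39.0%. Its windows past the thresholds were 5.15% above and 8.11% below. Only 73.0% of X windows were kept, with a median of 104 Pontin and 40 GFP reads. A minimum on the denominator lowers the ratio of windows of low coverage. With no minimum, the X held 1357695 Pontin and 530047 GFP reads, beside 34721336 and 13340820 on the autosomes. Those totals give a ratio nearer to that of the autosomes together, but still below it. The ratio of single autosomes was not taken without the minimum, so the place of the X below each autosome is shown only for the windows kept. What part the lower depth had in the ratio of the X was not tested.

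**Figure D2:**
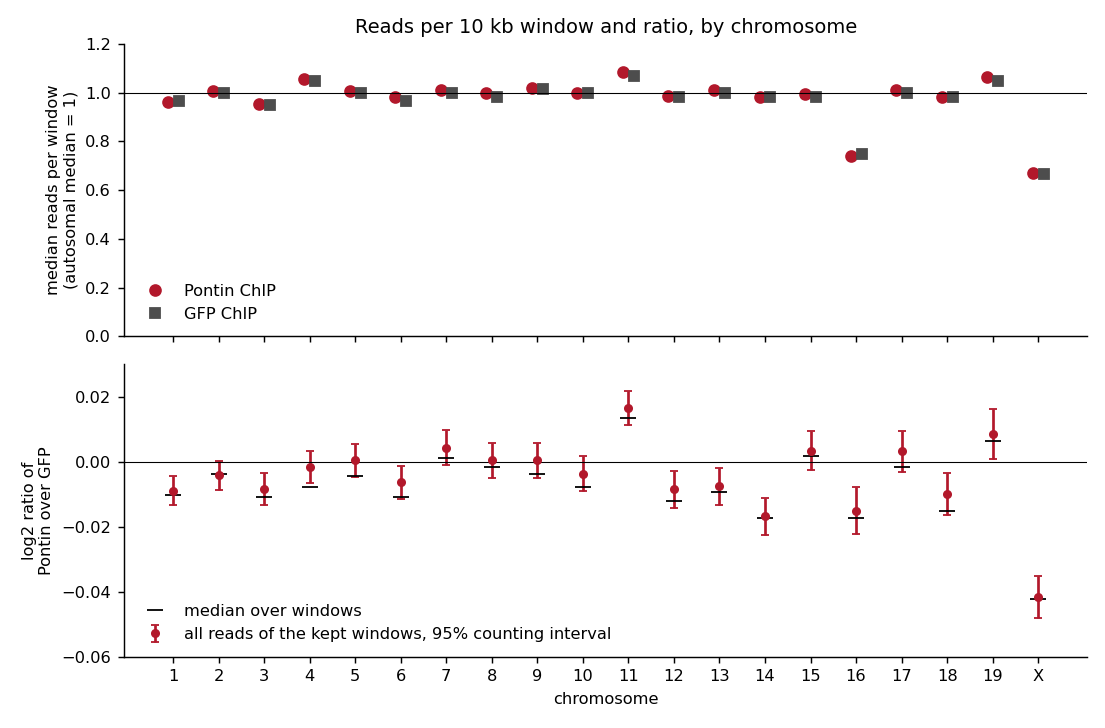
Top, median reads per kept 10 kb window of each chromosome in the Pontin and the GFP library, with the median autosome set to 1. Chromosome 16 and the X lie near 0.75 and 0.67 in both. Bottom, log2 ratio of Pontin over GFP from all reads of the kept windows (points, bars are 95% counting intervals) and median over windows (dashes); autosomal medians lie between -0.017 and 0.013 and the X at -0.042.

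Gene-dense domains had a higher ratio than gene-free ones, by a small amount. Gene density was the number of protein-coding gene starts within 500 kb either side of the window. The 23808 windows with 0 starts had a median log2 ratio of -0.051, and the median was higher in each class with more starts, at -0.038 for 1 to 2, -0.017 for 3 to 5, 0.00030 for 6 to 10, 0.020 for 11 to 20, 0.040 for 21 to 40 and 0.067 for 41 to 83. The pooled ratios gave the same order, from -0.052 (95% counting interval -0.056 to -0.048) to 0.078 (0.070 to 0.087). The share of windows above 0.58 was 3.95% in the first class and 5.86% in the last, and the share below -0.58 was 5.75% and 2.55%. The highest quintile of windows by density, with at least 14 starts, exceeded the gene-free windows by 0.086.

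Base composition moved with gene density, and at like GC content the step was near 0 in 4 of 5 classes. Mean GC content was 37.6% in windows with 0 starts and 46.5% in windows with 41 to 83 starts. Within quintiles of GC content, the gene-dense minus gene-free difference averaged 0.0038, with equal weight for each quintile, and ranged from -0.016 to 0.056. Gene-free windows numbered 14637, 6300, 2105, 642 and 124 from the lowest quintile to the highest. The differences at high GC content thus rest on few gene-free windows. The ratio itself had a Pearson correlation of 0.14 with GC content over the 223416 windows and of 0.16 with CG dinucleotides per kb. By deciles of GC content, the median log2 ratio was flat between -0.058 and -0.049 over the 4 lowest deciles, below a GC content of 40.3%, and was 0.092 in the highest, above 48.1%. By deciles of CG dinucleotides, it ran from -0.053 in the lowest to 0.12 from 14.3 per kb on, where 7.37% of windows were above 0.58 and 1.51% below -0.58. Both libraries had more reads in GC-rich windows, with correlations of log2 reads with GC content of 0.37 for Pontin and 0.27 for GFP, and a difference between the libraries in GC recovery cannot be told apart from a difference in binding in these 2 libraries.

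Read density gave opposite orders depending on how it was defined. When windows were ranked by GFP reads, the median log2 ratio was 0.19 in the lowest quintile (20 to 44 GFP reads) and -0.20 in the highest (73 reads or more), a difference of -0.39. The GFP reads enter both the rank and the ratio there, so that this order is built in. When the rank came from a random 50% of the GFP pairs and the ratio from the remaining pairs, the order turned, from -0.043 in the lowest quintile to 0.029 in the highest, a difference of 0.072. When the rank came from the reads of both libraries together, it ran from -0.072 to 0.060. That rank still shares reads with the ratio, most of them Pontin reads, and the split version still keeps windows by their total GFP reads, so neither is free of the coupling. The 15 windows above 300 GFP reads, up to 2930 GFP and 6550 Pontin reads in 1 window on chromosome 17, were high in both libraries, with log2 ratios from -0.96 to -0.0039, and held 0.128% of the Pontin and 0.144% of the GFP reads.

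Windows that hold the start of an expressed gene stood above all other classes. Expressed meant above 1 CPM in both control shRNA libraries, and each window was put into 1 class. The 10813 windows with an expressed start had a median log2 ratio of 0.17, and their pooled ratio was 0.17 (95% counting interval 0.16 to 0.17). Of them 8.90% were above 0.58 and 0.509% below -0.58, beside 4.24% and 3.72% of all windows. The 6992 windows with starts of genes not expressed only had a median of 0.043, with 5.38% above 0.58 and 3.20% below -0.58. Windows in the body of an expressed gene (57912 windows, median -0.019), in the body of another gene only (37953, -0.0087) and without an annotated gene (109746, -0.020) lay close to each other. Expressed-start windows held 213 Pontin and 72.8 GFP reads on average and windows without a gene 140 and 54.5, so both libraries recovered more DNA there, and Pontin by more.

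The step at expressed starts held in each quintile of GC content, over 69, 301, 1105, 2994 and 6344 expressed-start windows from the lowest to the highest. CG dinucleotides were not matched, at 18.3 per kb in all expressed-start windows and 6.91 in windows without a gene. In the quintiles of GC content from the lowest to the highest, expressed-start windows exceeded windows without a gene by 0.11, 0.14, 0.16, 0.14 and 0.12, an average of 0.13 against 0.19 without regard to GC. The excess over windows with starts of genes not expressed ranged from 0.071 to 0.12. Windows in the body of expressed genes lay below windows without a gene in each quintile, by 0.017 to 0.028. With expressed genes called from the WT mRNA library in place of the control shRNA libraries, the step was 0.19, and without chromosome 16 it was 0.18.

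**Figure D3:**
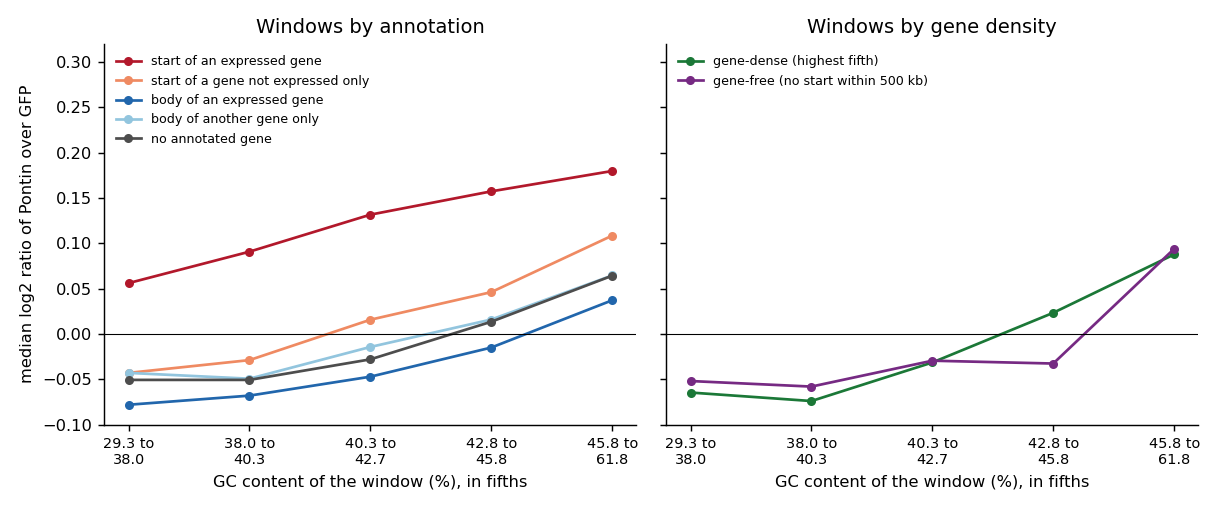
Median log2 ratio of Pontin over GFP by quintiles of window GC content, for 5 annotation classes (left) and for gene-dense and gene-free windows (right). Expressed-start windows run from 0.056 to 0.18 and lie above each other class in each quintile, while the gene-dense and gene-free lines differ by an average of 0.0038.

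The level of expression mattered little above a low bar. By the CPM of the highest gene starting in the window, the median log2 ratio was 0.041 below 1 CPM, 0.14 from 1 to 10 CPM, 0.17 from 10 to 50, 0.18 from 50 to 200, 0.18 from 200 to 1000 and 0.18 in the 81 windows above 1000 CPM. The pooled ratios of the 3 highest classes had overlapping counting intervals, 0.17 to 0.19, 0.17 to 0.20 and 0.13 to 0.24. The share of windows above 0.58 was 8.75% from 1 to 10 CPM, 8.91% from 10 to 50, 9.32% from 50 to 200 and 8.14% from 200 to 1000. It was 6.17% above 1000 CPM, which is 5 of 81 windows.

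Read out by distance, the excess lay within about 1 kb of the starts. Around 12195 expressed genes, the pooled log2 ratio was 0.53 in the bin of 1 kb upstream of the start and 0.63 (95% counting interval 0.61 to 0.64) in the first 1 kb downstream, where the Pontin library had 369650 and the GFP library 91990 reads. It was 0.10 in the next bin upstream and 0.094 in the next bin downstream. Compared with bins 40 to 50 kb away, Pontin reads in the first 1 kb were 1.71 times and GFP reads 1.14 times as many. Around 8921 genes not expressed the highest bin was the same one, at 0.23 (0.20 to 0.25), with 1.14 times the Pontin reads and 0.992 times the GFP reads of the distant bins. Away from the starts of expressed genes the 2 sides differed, with a median over bins of 0.058 from 5 to 20 kb upstream and of 0.014 from 5 to 20 kb downstream, where the GFP reads were 1.04 times and the Pontin reads 1.02 times those of the distant bins. Neighbouring genes share reads in these sums.

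**Figure D4:**
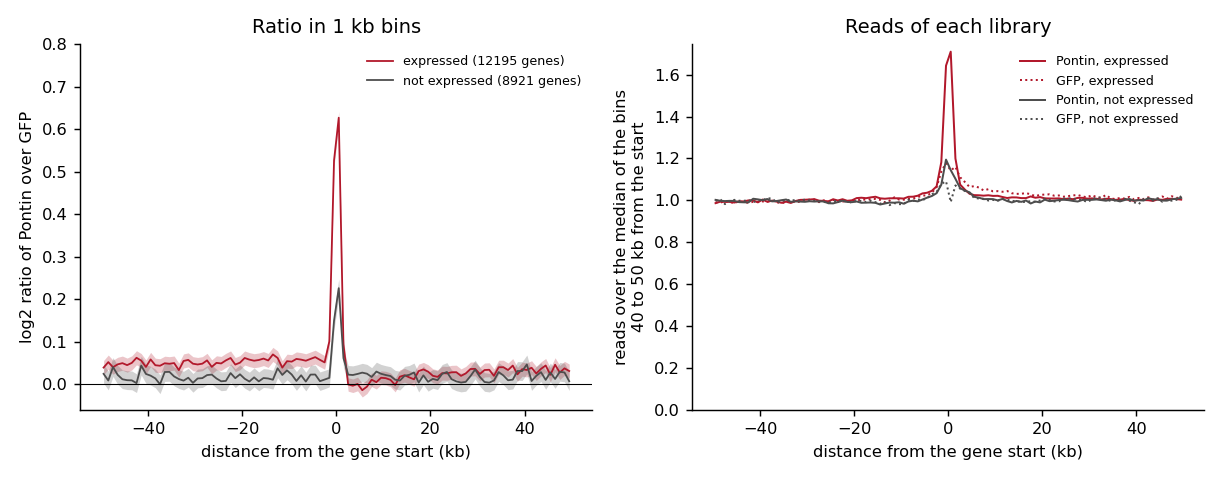
Left, log2 ratio of Pontin over GFP in 1 kb bins up to 50 kb from the start of 12195 expressed and 8921 not expressed protein-coding genes (bands, 95% counting intervals); the peaks are 0.63 and 0.23. Right, reads of each library over its own median in the bins 40 to 50 kb away; Pontin reads reach 1.71 times that level at expressed starts and GFP reads 1.14 times.

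Gene families that lie in clusters showed how the ratio is laid out over domains. The Hox clusters, which hold the homeotic transcription factors of the body axis, had the highest median, 0.23 over 44 windows, with 6 windows (13.6%) above 0.58 and 0 below -0.58, beside 4.24% and 3.72% of all windows. Over every window of the whole cluster spans, a larger set than these 44, the pooled ratio was 0.33 (0.18 to 0.49) over the 12 windows of Hoxa, 0.20 (0.036 to 0.36) over the 11 of Hoxd, 0.16 (0.0038 to 0.31) over the 12 of Hoxc and 0.065 (-0.059 to 0.19) over the 18 of Hoxb. A window of Hoxb4 and Hoxb3 was the lowest of the 44, with 186 Pontin and 86 GFP reads (log2 ratio -0.27, standard error 0.25). Hox windows held 25.7 CG dinucleotides per kb, against 18.3 in expressed-start windows.

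Ribosomal protein and histone genes lay above the genome median too. Windows of cytosolic ribosomal protein genes and their annotated coding copies (172 windows) had a median of 0.17, the same as expressed-start windows (0.17). Of them 6.40% were above 0.58, beside 4.24% of all windows and 8.90% of expressed-start windows. The histone clusters, which encode replication-dependent histones, had a median of 0.14 over 36 windows, with 11.1% (4 windows) above. They held 19.2 CG dinucleotides per kb, and all windows from 14.3 per kb on had a median of 0.12. The H2 genes of the major histocompatibility complex (43 windows) had a median of 0.077 and the Zfp zinc finger genes (1248 windows) of 0.027.

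Families of chemosensory receptors lay below it. Olfactory receptor windows (1118) had a median of -0.038 and a pooled ratio of -0.039 (-0.057 to -0.020), with 4.11% above 0.58, near the 4.24% of all windows, and 6.35% below -0.58, beside 3.72% of all windows. Vomeronasal receptor windows, pheromone receptors of the vomeronasal organ, had the lowest median of the 11 families, -0.10, and a pooled ratio of -0.099 (-0.13 to -0.064) over 354 windows, with 2.82% above and 9.32% below. Their GC content averaged 38.0% and 37.5%. All windows in the GC decile from 36.6% to 38.0% had a median of -0.053, and those in the next decile, up to 39.1%, of -0.058. The olfactory receptor median lay above both values and the vomeronasal receptor median below both. Single windows ranged widely in both, from Vmn2r109 (162 Pontin and 25 GFP reads, log2 ratio 1.32, standard error 0.40) to Vmn2r13 (20 and 22 reads, -1.52, 0.47) and from a window of Olfr286, Olfr287 and Olfr288 (187 and 30 reads, 1.26, 0.35) to Olfr205 (28 and 26 reads, -1.27, 0.51), which shows how few reads lie behind the extremes. Only 354 of 686 vomeronasal windows had 20 GFP reads, and such a minimum on the denominator lowers the ratio of windows of low coverage. Over every window, with no minimum, the pooled ratio was -0.083 (-0.12 to -0.050) for the 686 vomeronasal windows, still the lowest of the 11 families, and -0.032 (-0.050 to -0.014) for the 1242 olfactory receptor windows. Clustered protocadherins (63 windows, median -0.035), keratin-associated proteins (45, -0.036), beta-defensins (50, -0.0022) and major urinary proteins (6 of 50 windows kept, -0.0069) had pooled intervals that held 0.

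**Figure D5:**
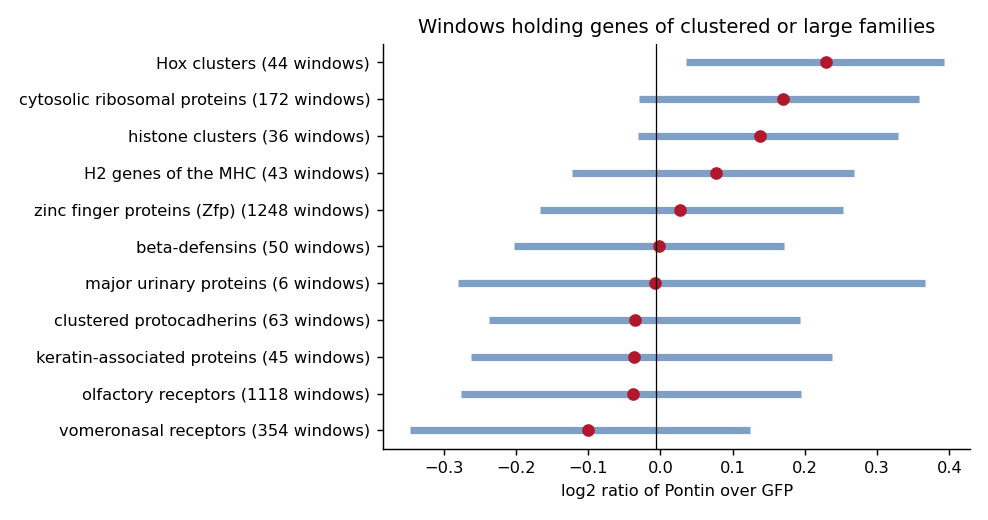
Median log2 ratio of Pontin over GFP (points) and interquartile range over the windows (bars) for 11 gene families, with the number of windows kept; the vertical line is the median of all windows, -0.0062. Hox clusters lie highest at 0.23 and vomeronasal receptors lowest at -0.10.

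Blocks of 1 Mb repeated this layout. Among 2332 blocks with at least 50 windows kept, the medians had an SD of 0.058 and ran from -0.27 to 0.19, and 0 passed 0.58 in either direction. The 5 highest blocks lay on chromosomes 8 (124 Mb, with Banp, Zfpm1 and Slc7a5, median 0.19), 2 (172 Mb, with Aurka, Tcfap2c and Bmp7, 0.18), 3 (96 Mb, with the Hist2h cluster, 0.18), 4 (133 Mb, with Lin28a and Arid1a, 0.17) and 11 (102 Mb, with Ubtf, Hdac5 and Eftud2, 0.16). They held 15 to 36 protein-coding genes each, of which 10 to 31 were expressed, and a GC content of 45.3% to 52.0%. Their pooled ratios over every window, with no minimum of GFP reads, were 0.14, 0.13, 0.13, 0.14 and 0.097 in this order. By that value they ranked 2325, 2316, 2310, 2326 and 2267 from the lowest of the 2332 blocks, so none was among the 5 highest. The 5 lowest lay on chromosomes 17 (39 Mb, no protein-coding gene, -0.27), 4 (113 Mb, Skint5 and Skint11, -0.22), 17 (22 Mb, zinc finger and Vmn2r genes, -0.21), 7 (49 Mb, Vmn2r genes, -0.20) and 8 (19 Mb, beta-defensin genes, -0.19). They held 0, 2, 13, 11 and 18 protein-coding genes in this order, of which 0, 0, 8, 5 and 1 were expressed, so 1 of them held more coding genes than the highest block with 15. Of their windows 50 to 65 were kept, against 91 to 100 in the highest, with a median of 35 to 52.5 GFP reads, and their GC content was 37.4% to 41.5%. Since the minimum on GFP reads lowers the ratio of such blocks, the pooled ratio was also taken over every window with no minimum, and in the same order it was -0.20, -0.11, -0.15, -0.17 and -0.15, beside -0.23, -0.14, -0.15, -0.20 and -0.16 with the minimum, and without it each had a 95% counting interval below 0. By that value they ranked 2, 39, 7, 4 and 5 from the lowest of the 2332 blocks, which differs from the order by medians in the measure as well as in the minimum. The block on chromosome 17 at 39 Mb holds 1 window with 6550 Pontin and 2930 GFP reads (log2 ratio -0.22). The medians of its kept windows were 77.5 and 36 reads, so its pooled values and its rank rest mostly on that window.

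The single windows at the extremes differed in the same features. The highest among windows with at least 50 GFP reads was that of Pcbp1, which encodes a poly(rC)-binding protein (chr6:86470001-86480000), with 386 Pontin and 67 GFP reads, a log2 ratio of 1.15 and a standard error of 0.26. Rps19, a protein of the small ribosomal subunit, had 292 and 51 reads (1.14). The window of Rpl23a, of the large subunit, had 336 and 60 (1.11) and also held the starts of Nek8 and Tlcd1. Eef2, the elongation factor that moves the ribosome, shared its window with Pias4 at 296 and 53. The others held the starts of Hs3st3b1 (283 and 50 reads), 1110001J03Rik (285 and 51), Nol11 (304 and 55), Pbx3 (281 and 52), Cdkn1b (340 and 63) and Mprip (272 and 51). The 10 lowest ran from -1.62 (49 Pontin and 58 GFP reads, chr2:46430001-46440000) to -1.28. None held a coding start, 8 held no annotated gene, the other 2 lay in Cntnap5b and Thrb, and 4 lay on chromosome 16. The minimum of 50 GFP reads kept 31.2% of the windows of chromosome 16 against 66.5% elsewhere, and those kept had a median of -0.20. Chromosome 16 held 3070 of the 160952 windows so kept and 12 of the 100 lowest.

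Over the 100 windows at each end, 60 of the highest and 0 of the lowest held an expressed start, where 6.27% of all 160952 windows with at least 50 GFP reads did. Of the lowest 100, 67 held no annotated gene, against 42.7% of all such windows. Mean GC content was 48.4% in the highest 100 and 38.7% in the lowest. Since the windows were ranked by the ratio, these are descriptions of the extremes.

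Loci that the study examined had wide errors. The study measured Pontin by ChIP with quantitative PCR at Oct4-binding regions. It reported Pontin at those of Lefty1, Otx2, Rif1 and linc1253, but not at that of Mycn. The 10 kb windows at gene starts differ in assay and scale and were not placed on those regions. The values below can therefore not be set against those results. The windows that hold the starts of 17 genes had a median log2 ratio of 0.48, 14 were above 0, 6 were above 0.58 (beside 4.24% of all windows and 8.90% of expressed-start windows), and 6 had a 95% counting interval above 0 and 0 an interval below it. Of all windows 49.3% were above 0 and 2.70% had an interval above 0, and of expressed-start windows 72.5% and 9.99%. The count above 0 was thus near that of expressed-start windows. The 6 of 17 above 0.58 and the 6 of 17 with an interval above 0 were larger shares than among expressed-start windows. The highest were Gata6, an endoderm factor, with 229 Pontin and 48 GFP reads (0.87, standard error 0.32), Hand1, a trophoblast and heart factor, with 248 and 54 (0.82, 0.31), and Rif1, a replication timing factor, with 270 and 62 (0.74, 0.27). Tpm1 was at 0.64, Fut9 at 0.64, Igf2 at 0.61, Timp2 at 0.51, Ptch1 at 0.48 and Otx2 at 0.41. Ruvbl1, the gene of Pontin itself, had 210 and 55 reads (0.55, 0.28). In the control shRNA libraries Gata6 was at 0.415 and 0.946 CPM and Hand1 at 5.35 and 3.23 CPM, so the 2 highest ratios lay at genes of low expression, while Rif1 was at 335 and 462 CPM.

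The core pluripotency genes were not at the high end at this scale. Sox2 had 294 Pontin and 91 GFP reads (0.31, standard error 0.24) and Mycn 252 and 78 (0.31, 0.26). Nanog had 242 and 85 (0.13, 0.24) and Pou5f1, which encodes Oct4, 233 and 91 (-0.024, 0.23). Lefty1, a Nodal antagonist, had 211 and 90 (-0.15, 0.24), and Bmp1 173 and 72 (-0.12, 0.27). Krt18 was at 0.13. The window at the start of linc1253 had 224 Pontin and 82 GFP reads (0.070, 0.25), the start being placed on NCBIM37 from published coordinates. The counting intervals of Pou5f1 (-0.47 to 0.42) and Nanog (-0.35 to 0.61) hold both 0 and the median of expressed starts, so that neither value can be set apart from it at this depth. Over the surrounding 110 kb the ratios of the 17 genes lay between 0.019 for Lefty1 and 0.19 for Hand1, and that of linc1253 was -0.093.

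Genes past the threshold in the OHT or Tc libraries started in windows with a median ratio close to that of the other expressed genes. Log2-fold-changes were taken from log2(CPM + 1) with 1 library a condition and a shared WT library, over the 13449 genes for which any of these 4 mRNA libraries exceeded 1 CPM. Genes past 0.58 upwards made up 6.01% in OHT 3D, 6.48% in OHT 4D and 23.9% in Tc 2D, and genes past -0.58 downwards 5.88%, 8.89% and 25.8%. Tc 2D is of ZHBTc4 cells and WT of Pontinf/f; CreER cells, so that Oct4 depletion and the cell line cannot be told apart in that comparison. The window ratio was available for 12772 of these genes. In OHT 3D its median was 0.17 for 760 genes higher, 0.17 for 758 genes lower and 0.17 for 11254 genes not called. In OHT 4D it was 0.17, 0.17 and 0.17 for 834, 1091 and 10847 genes. In Tc 2D it was 0.16, 0.18 and 0.17 for 3086, 3207 and 6479 genes.

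At matched expression the medians also lay close together. Among genes at 10 to 50 CPM in WT, the OHT 3D medians were 0.19 (152 genes higher), 0.18 (331 lower) and 0.17 (4032 not called), and the Tc 2D medians were 0.16 (963), 0.19 (923) and 0.17 (2629). Among genes at 50 CPM or more, they were 0.19 (39), 0.17 (146) and 0.18 (3789) in OHT 3D and 0.18 (193), 0.18 (1561) and 0.18 (2220) in Tc 2D. The OHT 4D medians for genes higher, lower and not called were 0.19, 0.16 and 0.17 at 10 to 50 CPM and 0.20, 0.19 and 0.18 at 50 CPM or more. At 1 to 10 CPM they were 0.17 (386 genes higher), 0.13 (252 lower) and 0.16 (2532 not called) in OHT 4D, against 0.17, 0.15 and 0.15 in OHT 3D and 0.16, 0.14 and 0.15 in Tc 2D. Each set spread widely, the interquartile range of the OHT 3D genes that were lower running from -0.013 to 0.36.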

How the data were processed

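ChIP-sequencing was made by the authors with antibodies against Pontin or GFP, 1 library each. Adapters were removed, ends of low quality trimmed and reads aligned to NCBIM37 with Bowtie2, per the study's methods, and unique alignments were deposited as read positions with a mapping score per read. Gene expression was deposited by the authors as TMM-normalized CPM from TopHat and HTSeq counts, named with edgeR in the submitters' processing notes, in tables with WT, OHT 3D, OHT 4D and Tc 2D or with the shRNA libraries, each table normalized apart. The shRNA libraries against linc1253 were not used here except for the Y-gene check.

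From the positions, 1 read was kept per 5′ end and strand and counted in 10 kb windows from position 0. Windows with at least 20 GFP reads were kept and their log2 ratio in RPM was formed, with no pseudocount. Counting errors used distinct read pairs, since mates are not independent; around gene starts, where reads were summed, the variance was doubled to allow for mates. GC content, CG dinucleotides and gene classes came from the NCBIM37 sequence and GENCODE annotation of that build; 22337 of 22713 gene IDs matched. Expressed meant above 1 CPM in both control shRNA libraries. With 1 library per antibody no test was made. Numbers were computed with Python 3.11.15, numpy and pandas, and the window summaries were tested on simulated data.

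Text names all autosomes and the X, the 5 highest and 5 lowest 1 Mb blocks (at least 50 windows kept), the 10 highest and 10 lowest windows with at least 50 GFP reads, loci from the study and 11 gene families. The windows, lists and classes were chosen with earlier results of these data known. Alternatives changed the read filter, scaling, window filter and size, mapping score, mates, chromosomes and class definitions.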

Additional observations from a re-analysis of the deposited data

How the results depend on the processing

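Over 9 summary values, 110 alternative values were computed. Of these, 50 stayed within a tolerance around the reported value (percentages, within 1.5 times), 57 moved beyond it and 3 turned the direction of a difference. For values other than percentages, the tolerance came from the spread and number of windows, as if windows were independent. It is not an error from counting of read pairs. Since windows are not replicates of either antibody, the tally only describes the size of the shifts. The GC content and expressed-start values kept their sign under each alternative. The gene-dense difference kept it too, but within GC quintiles its average rests on 1 quintile (0.056), and it was below 0 in the other 4. The median log2 ratio was -0.0062 as reported and 0.017 with all deposited reads, 0 scaled to the median window, -0.058 with a minimum of 50 GFP reads, -0.0015 with 1 read in each library, 0.000168 with 77 reads of both libraries together, -0.0042 in windows of 50 kb and -0.017 with 1 read of each pair. The SD was 0.33 as reported and 0.41 with all deposited reads, 0.29 with a minimum of 50 GFP reads, 0.37 with 1 read in each library, 0.33 with 77 reads of both libraries together, 0.15 in windows of 50 kb, 0.11 in windows of 100 kb, 0.33 at a mapping score of at least 30, 0.32 with 1 read of each pair and 0.33 without chromosome 16. The percent of windows above 0.58 was 4.24% as reported and 6.66% with all deposited reads, 1.2% with a minimum of 50 GFP reads, 0.0239% in windows of 50 kb and 0% in windows of 100 kb. The percent below -0.58 was 3.72% as reported and 6.98% with all deposited reads, 0.0282% in windows of 50 kb and 0.00866% in windows of 100 kb. The range of chromosome medians was 0.031 as reported and 0.18 with a minimum of 50 GFP reads and 0.094 with 1 read of each pair. The gene-dense minus gene-free difference was 0.086 as reported and 0.076 with all deposited reads, 0.19 with a minimum of 50 GFP reads, 0.073 with 1 read in each library, 0.079 with 77 reads of both libraries together, 0.077 in windows of 50 kb, 0.11 with 1 read of each pair, 0.065 with starts counted within 100 kb, 0.0038 averaged within GC quintiles and 0.063 in windows without a gene start. The difference by GFP density was -0.39 as reported and -0.58 with all deposited reads, -0.32 with a minimum of 50 GFP reads, -0.38 with 1 read in each library, -0.43 with 77 reads of both libraries together, -0.054 in windows of 50 kb, 0.0065 in windows of 100 kb, -0.43 with 1 read of each pair, -0.40 without chromosome 16, 0.072 with class and ratio from separate GFP pairs and 0.13 with the class from both libraries. The correlation with GC content was 0.14 as reported and 0.16 with all deposited reads, 0.26 with a minimum of 50 GFP reads, 0.12 with 1 read in each library, 0.13 with 77 reads of both libraries together, 0.26 in windows of 50 kb, 0.34 in windows of 100 kb and 0.18 with 1 read of each pair. The expressed-start difference was 0.19 as reported and 0.20 with all deposited reads, 0.24 with a minimum of 50 GFP reads, 0.18 with 1 read in each library, 0.18 with 77 reads of both libraries together, 0.080 in windows of 50 kb, 0.066 in windows of 100 kb, 0.21 with 1 read of each pair, 0.13 averaged within GC quintiles and 0.19 with expressed as above 10 CPM. The median over all windows, whose 0 is set by the scaling, went from below to above 0 with all deposited reads and with 77 reads of both libraries. The turned differences concern GFP density, whose reported value is built on GFP reads in both class and denominator. A minimum of 50 GFP reads kept 31.2% of windows on chromosome 16 and 66.5% elsewhere, and the median of chromosome 16 was then -0.20; without it the range of medians was 0.055. With 1 read of each pair the range without chromosome 16 was 0.038. The causes of the other shifts were not tested. The expressed class from the WT library, the values without chromosome 16 or without gene-start windows, the SD without windows above 300 GFP reads and the family and block ratios with no minimum of GFP reads were added after seeing the data. The 11 family and 10 block ratios with no minimum stayed within the counting intervals of those with it. No paired analysis was possible because there is 1 library per antibody. The 59 GFP reads of the median window limit single windows to a standard error of 0.30, so differences of the size described here are seen only over many windows.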
